A study of Mus musculus with 2 samples.

Results

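The genes of the hypoxia-inducible factors (HIFs) and of the enzymes that sense oxygen for them were read on 2 Affymetrix whole-genome mouse arrays of CH cells. CH cells are small cells of the peripheral blood of healthy mice, sorted as live, DNA-containing events that lack CD45 and the markers of differentiated blood cells. The set holds 10 genes, chosen by name for their role in the pathway, and every probe set that the platform annotation assigns to 1 of them alone was taken. This gave 30 probe sets, out of 45037 on the array after removal of controls, and 10 genes out of 18193 with such a probe set. Each array held RNA of a separate pool, and the submitters' notes describe each pool as 15 C57bl/6 mice of both sexes aged 7 months, and name no treatment. The methods of the study give a younger age and fewer mice per group, so the age of the pools is not settled. There was a single group of 2 arrays, which the submitters call biological replicates, and no other population or oxygen tension was analysed here. The comparison that these data allow is therefore that of each level with the low end of the signal range, and the precision is limited by the number of arrays.

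In cells with enough oxygen, the prolyl hydroxylases of the Egln family use oxygen to hydroxylate the alpha subunits of HIF. The hydroxylated subunit is bound by the product of Vhl, ubiquitinated and degraded, while an asparaginyl hydroxylase encoded by Hif1an blocks its coactivators. When oxygen falls, the alpha subunit escapes, pairs with a beta subunit encoded by Arnt or Arnt2, and activates genes of glycolysis, blood vessel growth and red cell formation. Most of this control acts on the protein, which an array of RNA does not read.

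The signals are log2 values as deposited. A probe set was called above the limit when it exceeded 5 (log2) on both arrays, the value below which the study removed genes before its clustering. The median difference between the arrays, without its sign, was 0.11 for the 30 probe sets and 0.12 for all probe sets. Genes that blood cells should not use, namely 76 olfactory, vomeronasal and taste receptor genes, served as a background. Over their 84 probe sets the median was 4.06 and the 95th percentile 6.04, and 13 of the 76 genes (17.1%) were also above 5 on both arrays. The highest of these probe sets, of Vmn1r44, reached 6.92. A level between 5 and 6 therefore lies within the range of this background. Signals of different probe sets depend on the affinity of their probes and do not order genes by the amount of their RNA. Because the RNA is of pooled cells, fewer cells with a transcript and less transcript per cell cannot be told apart.

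All 10 genes had a probe set above 5 on both arrays, beside 71.2% of all genes. With a limit of 8, the count was 5 of 10 (Hif1a, Arnt, Egln1, Egln2 and Hif1an), beside 37.0% of all genes. The level of a gene, taken from its highest probe set, had a median of 8.05 over the 10 genes and of 6.84 over all genes. A highest value favours genes with many probe sets, and the 10 genes had 30 of them, against 34945 for all 18193 genes. Over single probe sets the medians were closer, at 5.91 for the 30 and 5.52 for the whole array. Of the 30 probe sets, 19 were above 5 on both arrays, beside 57.2% of all probe sets, and 11 were below 5 on both, beside 39.1%. With limma, which sets each mean against 5 with the spread shared over all probe sets, 18 of the 30 were above 5 at an adjusted p under 0.05 (54.8% of all probe sets) and 11 were below (36.4%). The probe set without a call in either direction was the higher one of Epas1. In 4 genes, Egln1, Egln2, Egln3 and Vhl, every probe set was above 5. In the other 6 the probe sets lay on both sides of the limit.

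**Figure D1:**
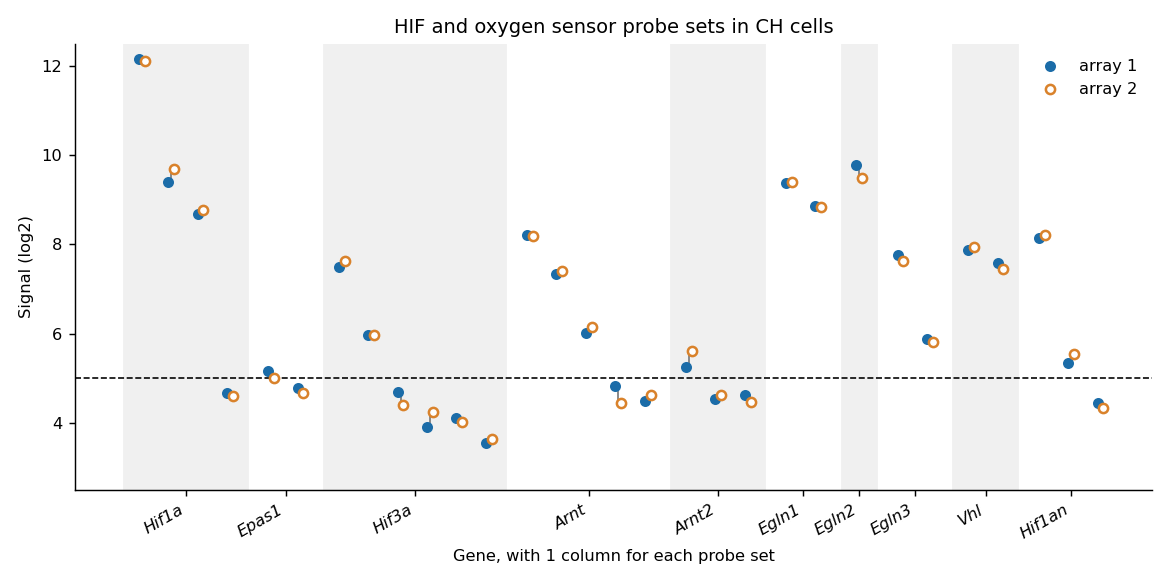
Log2 signal of the 30 probe sets of the 10 genes in CH cells, with 1 column for each probe set, filled circles for array 1 and open circles for array 2. The dashed line marks 5; Hif1a reaches 12.14 (mean) with 1 probe set and lies at 4.63 with another, both probe sets of Epas1 lie near the line, and those of Egln1, Egln2, Egln3 and Vhl are all above it.

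Among the alpha subunits, Hif1a was far above the limit, Epas1 lay on it and Hif3a differed by probe set. Hif1a, the alpha subunit of HIF-1 found in most cells, had a signal of 12.17 on array 1 and 12.11 on array 2 with probe set 1427418_a_at. Its mean was 12.14 ± 0.039 (SD, n = 2 arrays; limma adjusted p = 8.91e-08). The signals of 1416035_at were 9.40 and 9.70, and those of 1448183_a_at 8.69 and 8.78. All 3 were above every receptor probe set. The last, 1431981_at, was at 4.67 and 4.60 and lay below 5 (adjusted p = 0.00435 from limma). Of the 4 probe sets of Hif1a, 3 thus read a signal well above background and 1 did not, and the range of their means was 7.51 (log2).

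The promoter of Hif1a is shown because this gene had the highest signal of the 10. The sequence is from RefSeq (GRCm38.p6, chr12:73907617-73907916, plus strand) and runs from 250 bases before the start to 50 after it. Capitals mark ACGTG or GCGTG on either strand, the letters at the core of the elements that HIFs bind. Matches can overlap, and a CACGTG, the element of other basic helix-loop-helix factors, counts on both strands.
Hif1a: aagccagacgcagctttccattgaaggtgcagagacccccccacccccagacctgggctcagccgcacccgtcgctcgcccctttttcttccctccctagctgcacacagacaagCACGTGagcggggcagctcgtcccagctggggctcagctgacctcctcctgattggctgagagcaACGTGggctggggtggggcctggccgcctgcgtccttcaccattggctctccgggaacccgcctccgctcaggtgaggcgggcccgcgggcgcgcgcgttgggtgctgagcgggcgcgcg
This window held 3 matches to ACGTG, counting CACGTG on both strands, and 25 CpG dinucleotides. Of all 32851 promoter windows of RefSeq, 43.8% held 1 or both motifs, and the median number of CpGs was 7. Windows were listed for 9 of the 10 genes, Epas1 being the other. Of their 10 windows, 7 held a match, and 6 of the 9 genes had such a window. The CpG counts of these windows ran from 4 to 60, and their part in the matches was not tested. Such a match describes letters and shows no binding.

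Epas1, which encodes the alpha subunit of HIF-2 and is known from endothelial cells and the control of erythropoietin, was at 5.17 on array 1 and 5.0009 on array 2 with probe set 1449888_at. Both arrays passed the limit, but the mean of 5.09 ± 0.12 exceeded 5 by less than the SD. It was not told apart from 5 in the test (adjusted p = 0.344 from limma), and 72 of the 84 receptor probe sets lay below it. The other probe set, 1435436_at, was at 4.79 and 4.67 and thus lower than 5 (limma adjusted p = 0.0169). Signal of Epas1 could not be told from background on these arrays.

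Hif3a encodes another alpha subunit, and in the mouse a splice form of it, IPAS, is an inhibitor of HIF. Probe set 1425428_at was at 7.49 on array 1 and 7.63 on array 2, with a mean of 7.56 ± 0.096 (adjusted p = 1.56e-06 from limma), above every receptor probe set. Probe set 1425429_s_at, of a type that can read transcripts of several genes, was at 5.97 on both arrays. It lay within the range of the receptors, with 79 of their 84 probe sets below it. The other 4 were below 5, with means from 3.60 to 4.54, all past the test (highest adjusted p = 0.00673 from limma). The annotation gives both probe sets above 5 the same source sequence, and the 4 below 5 come from 4 other source sequences. The sources used here do not say which splice forms each of them reads.

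Of the beta subunits, Arnt was above the limit with 3 of 5 probe sets and Arnt2 with 1 of 3. Arnt, the partner of the alpha subunits and of the aryl hydrocarbon receptor, was at 8.21 on array 1 and 8.19 on array 2 with probe set 1419996_s_at. This type of probe set can read transcripts of several genes, but 1437042_at, which is not of that type, was at 7.35 and 7.41. Probe set 1421721_a_at was at 6.02 and 6.15, within the range of the receptors. The other 2 probe sets of Arnt, 1449696_at at 4.82 and 4.45 and 1425064_at at 4.48 and 4.63, were below 5 on both arrays. Arnt2, a related subunit known mainly from neurons and kidney, was at 5.26 and 5.60 with probe set 1434028_at (adjusted p = 0.0106 from limma), within the range of the receptors. Both other probe sets of Arnt2 were below 5, with means of 4.58 and 4.54.

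All 5 probe sets of the 3 prolyl hydroxylases were above 5 on both arrays. Egln1 encodes PHD2, the hydroxylase that sets the level of HIF in most tissues. Probe set 1423785_at of Egln1 gave 9.37 on array 1 and 9.40 on array 2, and 1451110_at gave 8.86 and 8.84. These means, 9.39 ± 0.022 and 8.85 ± 0.016, had adjusted p-values of 1.65e-07 and 2.41e-07 from limma. Egln2, which encodes PHD1, had 1 probe set, 1416533_at, at 9.79 and 9.50. Egln3, which encodes PHD3, was at 7.77 and 7.64 with 1418649_at and at 5.88 and 5.80 with 1418648_at. The higher probe set of Egln3 was above every receptor probe set, whereas the lower one, although above 5 in the test (adjusted p = 0.000125 from limma), lay within their range.

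Egln1 and Egln3 are themselves known targets of HIF, which lets the sensors rise when oxygen is low, and their promoters are shown for that reason. Both are from RefSeq (GRCm38.p6, minus strand), at chr8:124949205-124949504 for Egln1 and chr12:54203825-54204124 for Egln3, with capitals as above.
Egln1: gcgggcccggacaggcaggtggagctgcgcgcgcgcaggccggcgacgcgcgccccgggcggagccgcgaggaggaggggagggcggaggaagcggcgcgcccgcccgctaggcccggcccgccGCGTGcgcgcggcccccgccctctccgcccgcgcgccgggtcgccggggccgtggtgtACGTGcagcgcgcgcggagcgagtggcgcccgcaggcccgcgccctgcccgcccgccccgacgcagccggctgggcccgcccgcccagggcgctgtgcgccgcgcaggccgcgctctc
Egln3: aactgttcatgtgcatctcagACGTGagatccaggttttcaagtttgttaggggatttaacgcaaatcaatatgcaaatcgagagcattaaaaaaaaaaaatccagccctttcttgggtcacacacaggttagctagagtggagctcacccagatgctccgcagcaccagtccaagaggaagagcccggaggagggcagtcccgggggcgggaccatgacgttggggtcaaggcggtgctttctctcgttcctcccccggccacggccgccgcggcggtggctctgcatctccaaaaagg
The window of Egln1 held both motifs once each and 60 CpGs, and that of Egln3 held ACGTG once and 16 CpGs. The shares over all windows were 19.6% for ACGTG and 32.4% for GCGTG. A window of Egln2, not named here as a target, held 6 matches, counting CACGTG on both strands. Here too a match shows no binding.

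Vhl, the subunit of the ubiquitin ligase that recognises hydroxylated HIF, was above 5 with both probe sets. Probe set 1434708_at was at 7.89 on array 1 and 7.94 on array 2, and 1421071_at at 7.58 and 7.44. Both were above every receptor probe set, and the higher adjusted p was 1.77e-06 from limma. Hif1an, the asparaginyl hydroxylase also called FIH, was at 8.16 and 8.21 with 1428576_at, a mean of 8.19 ± 0.041. Its probe set 1452845_at was at 5.33 and 5.55, above 5 in the test (adjusted p = 0.0042 from limma) but within the range of the receptors. The last, 1447817_at, was at 4.44 and 4.33 and below 5. The 3 prolyl hydroxylases, Vhl and Hif1an thus each had at least 1 probe set above all receptors. The share of all genes above the receptors was not counted. The median over all genes, 6.84, was close to the highest receptor probe set, at 6.92.

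**Figure D2:**
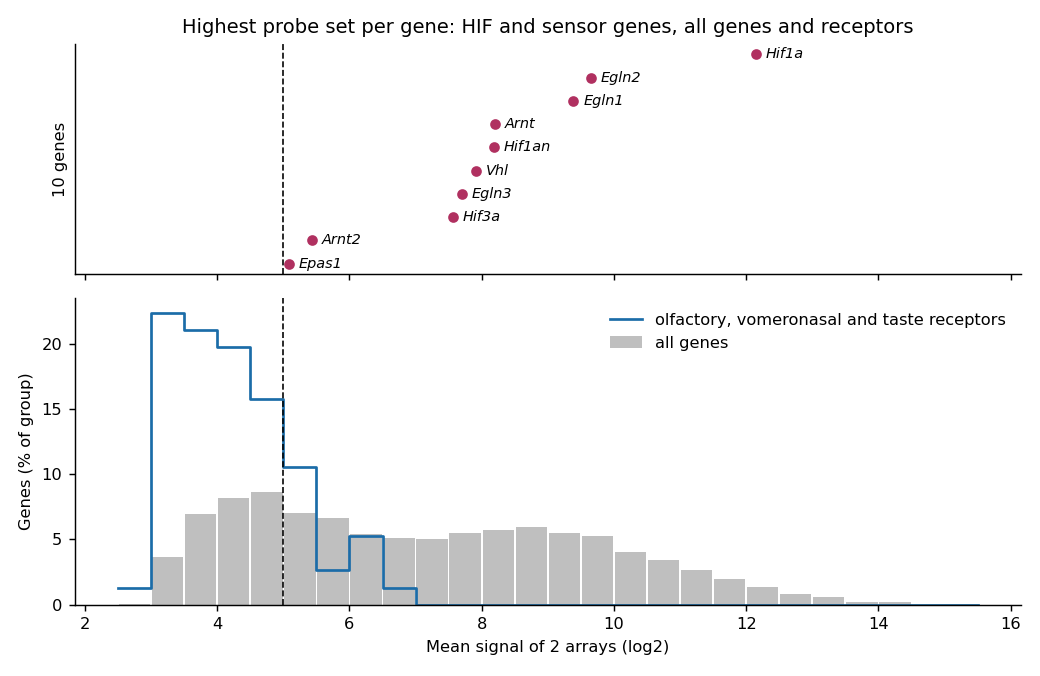
Mean log2 signal of both CH cell arrays, each gene read from its highest probe set, with 1 circle for each of the 10 genes in the upper panel and, in the lower panel, the share of genes per interval of 0.5 for all 18193 genes (grey bars) and for 76 receptor genes (blue line). Of the 10 genes, 8 (all but Epas1 and Arnt2) lie above the highest receptor gene at 6.92, and all lie above the dashed line at 5. The median over all genes, 6.84, is close to that receptor gene, and the share of all genes above it was not counted.

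Probe sets of the same gene often disagreed. Of the 9 genes with 2 or more probe sets, 6 had some above 5 on both arrays and some not, beside 42.0% of 9010 such genes on the array. The number of probe sets per gene, up to 6 for Hif3a, differs between genes and its part in this share was not tested. A total of 6 pairs of probe sets of these genes were designed on 1 source sequence each. Within these pairs the means differed by a median of 1.72, beside 0.999 for 3223 such pairs on the array. The pair of Arnt was at 8.20 and 4.64, that of Hif1an at 8.19 and 5.44, that of Egln3 at 7.70 and 5.84 and that of Hif3a at 7.56 and 5.97. The pairs of Egln1 and Arnt2 differed by 0.53 and 0.035. Where the middle of all probe sets per gene (their median) replaced the highest, Epas1 (4.91), Hif3a (4.31) and Arnt2 (4.58) were not above 5. The level of a single probe set is therefore no measure of the level of its gene, and a gene of which only 1 probe set was above the limit, as for Epas1 and Arnt2, rests on that probe set.

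The signals of these genes were close on both pools. No probe set of the 10 genes differed by over 0.5 between the arrays, beside 2.38% of all probe sets, and 4 differed by over 0.3, beside 13.0%. These 4 were 1449696_at of Arnt (0.38 higher on array 1), 1421572_at of Hif3a (0.31 higher on array 1), 1459052_at of Hif3a (-0.33, lower on array 1) and 1434028_at of Arnt2 (-0.35, lower on array 1). The means of 3 of them were below 5, and that of Arnt2 was 5.43. Among the higher signals, Egln2 differed most, by 0.30, followed by 1416035_at of Hif1a, by 0.29. Array 1 was higher for 15 of the 30 probe sets, beside 49.7% of all probe sets. With 2 arrays of 1 group, no difference between them was tested.

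**Figure D3:**
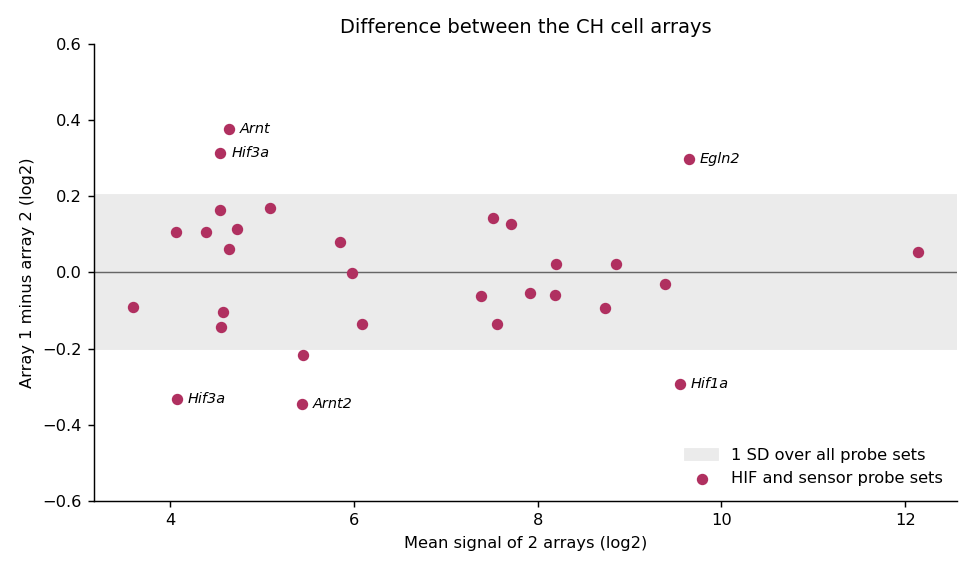
Difference between the CH cell arrays (array 1 minus array 2, log2) against the mean signal for the 30 probe sets. The grey band spans 1 SD (0.20) of the difference over all probe sets; no probe set of the 10 genes exceeds 0.5, and the largest difference is 0.38 (Arnt).

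Partners of the 10 genes in the pathway were read in the same way. Of the VHL ligase, Elob and Eloc, the adaptors that join Vhl to the scaffold, were at 12.53 ± 0.054 and 12.65 ± 0.044 (SD, n = 2 arrays), with the lowest probe set of Eloc at 7.01. Cul2, the scaffold, was at 10.08 ± 0.0005, and its lower probe set at 6.09. Rbx1, the RING subunit, had 1 probe set, at 5.21 and 4.98 on the arrays, and was not called above 5 (adjusted p = 0.325 from limma). Thus 3 of the 4 partners were above the limit, beside 71.2% of all genes.

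All 9 measured regulators of HIF stability and activity were above 5, beside 71.2% of all genes, and their median was 9.23. Hsp90aa1, a chaperone of the alpha subunit, was at 13.05, Cited2, which competes with HIF for its coactivators, at 12.05, Fkbp8, a partner of PHD2, at 9.76 and Siah1a, a ubiquitin ligase that acts on prolyl hydroxylases, at 9.58. The lowest of the list were Senp1, a SUMO protease, at 7.08, Usp20, a deubiquitinase bound by VHL, at 7.28, the coactivator Ep300 at 8.95 and Siah2, related to Siah1a, at 9.01. Of these 8, Hsp90aa1 and Usp20 also had probe sets below 5, the lowest at 4.13 and 3.84. Hsp90ab1 and Rack1 were not analysed here.

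Other dioxygenases that respond to oxygen were above 5 in 4 of 4 cases (71.2% of all genes), 1 of them by a small margin. Ado, which oxidises amino-terminal cysteines, was at 9.72 ± 0.082. The histone demethylases Kdm6a and Kdm5a were at 8.90 ± 0.0077 and 8.89 ± 0.20, and their lowest probe sets at 4.83 and 3.98. P4htm, a prolyl hydroxylase of the endoplasmic reticulum that can also act on HIF, was at 5.12 and 5.01 with its higher probe set, which the test did not tell apart from 5 (adjusted p = 0.437 from limma), and its other probe set was at 4.86.

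The other genes of the bHLH-PAS family, to which the HIF subunits belong, include sensors of other signals and factors of neurons. Of 11 genes, 7 were above 5 (71.2% of all genes), 4 above 6 and 3 above 8 (37.0% of all genes), and their median was 5.15, against 6.84 over all genes. Ahr, the aryl hydrocarbon receptor that also pairs with Arnt, was at 9.02, and the clock factors Arntl and Clock at 8.88 and 8.67. Arntl2, related to Arntl, was at 6.81, below the highest probe set of the background receptors, at 6.92. Below 5 on both arrays were Npas4, a factor of neurons, at 3.71, Ahrr, the repressor of Ahr, at 3.73, Sim2, a factor of brain development, at 4.06 and Npas1, also of neurons, at 4.65. With limma, 5 of the 11 genes were above 5. The share of all genes was not counted at 6 or with limma.

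**Figure D4:**
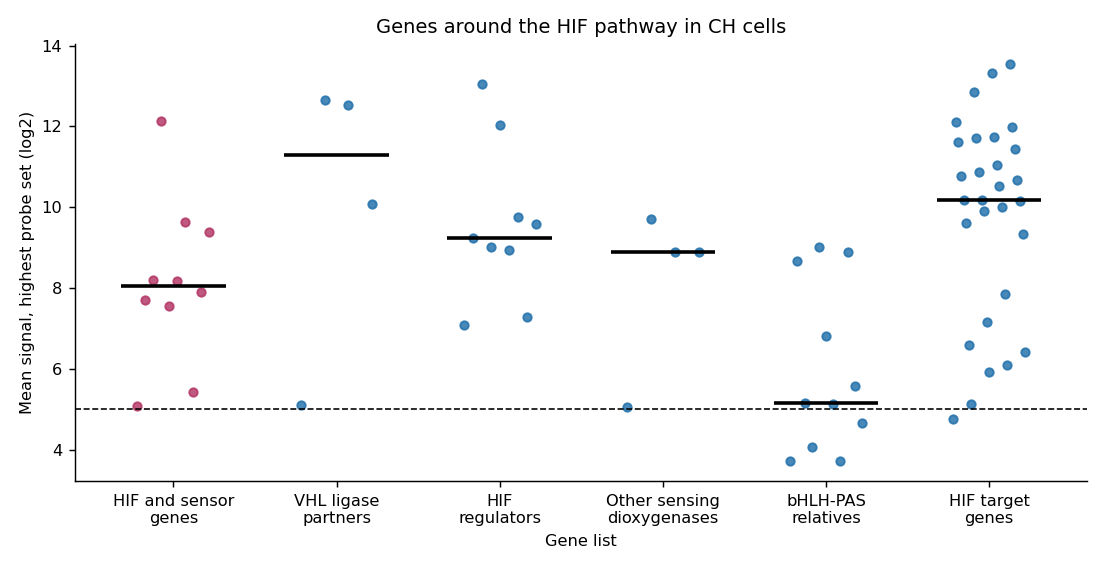
Mean log2 signal of both CH cell arrays for the 10 genes and for 5 lists of genes around them, where a circle is a gene, read from its highest probe set, and a black bar is the median of the list. The dashed line marks 5, and the medians are 8.05 for the 10 genes, 11.31 for VHL ligase partners, 9.23 for HIF regulators, 8.90 for other sensing dioxygenases, 5.15 for bHLH-PAS relatives and 10.18 for HIF target genes.

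Genes that HIF is known to activate had a median of 10.18, against 6.84 over all genes. Of 29 measured, 28 were above 5 (71.2% of all genes) and 21 above 8 (37.0% of all genes). With limma 27 of them were above 5, a call for which the share of all genes was not counted. The highest were enzymes of glycolysis, Pgk1 at 13.55 ± 0.030 and Ldha at 13.33 ± 0.026, both of which have near-identical copies elsewhere in the mouse genome that the probes may also read. They were followed by Fam162a, which encodes a mitochondrial protein of the response to hypoxia, at 12.85, and Tfrc, the transferrin receptor, at 12.12. The other probe set of Fam162a was at 5.33 and was not told apart from 5 (adjusted p = 0.0699 from limma), and the lowest of Tfrc was at 7.35. Vegfa, the growth factor of blood vessels, was at 10.53 and Slc2a1, a glucose transporter, at 11.99, and both were named after their values were seen. At the low end, Car12, a carbonic anhydrase, was the gene not above 5, at 4.72 and 4.80 on the arrays (adjusted p = 0.0241 from limma, below 5). Car9, another carbonic anhydrase that is widely used as a sign of hypoxia, was at 5.11 and 5.18 and was not told apart from 5 in the test (adjusted p = 0.11 from limma). Edn1, which encodes endothelin, was at 5.92 and Pfkfb3, a regulator of glycolysis, at 6.11, with its other probe set at 5.01. Bnip3l and Epo were not analysed here. These genes also answer to other signals, and without an array at another oxygen tension their levels do not show whether HIF was active.

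**Figure D5:**
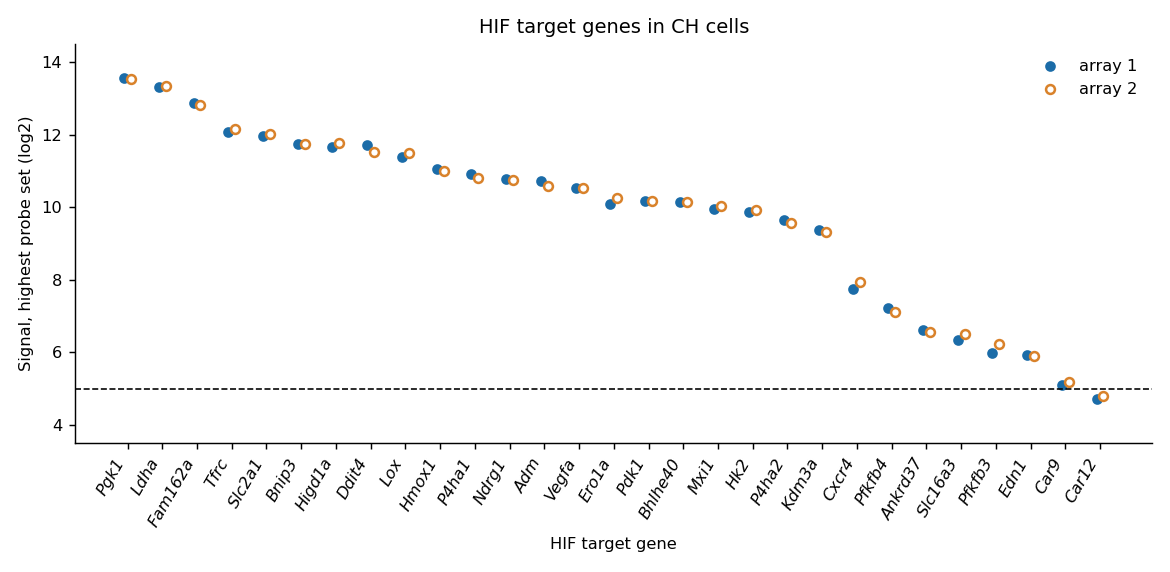
Log2 signal of 29 HIF target genes in CH cells, with the highest probe set per gene in falling order, filled circles for array 1 and open circles for array 2. The dashed line marks 5; Pgk1 lies at 13.55, 21 genes lie above 8 on both arrays, Car9 lies just above the line and Car12 below it.

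Marker genes of several cell types were read beside these levels. The paper reports Sox2, Oct4 (Pou5f1), Nanog and Klf4, also by quantitative PCR, and Sall4 as expressed by CH cells themselves. In its clustering, mesenchymal stem cells were nearest to CH cells, though described as clearly distinct. Of leukocyte genes, 3 of 6 measured were above 5 (71.2% of all genes), up to Csf1r at 7.42. Ptprc, which encodes CD45, was at 4.95 and 5.24 with its higher probe set. Of endothelial genes, among which Epas1 is known, 2 of 5 were above 5 (71.2% of all genes). The higher was Kdr at 6.43, and the other was not told apart from 5 in the test (adjusted p = 0.154 from limma). Pecam1 was at 4.57. Of erythroid genes 1 of 4 was above 5 (71.2% of all genes), an alpha globin gene at 6.46. Kdr and this globin gene lay below the highest receptor probe set, at 6.92, and so within the range of that background. The same held for the other leukocyte genes above 5, Cd3e at 6.61 and S100a8 at 6.48. The highest probe set of Csf1r lay above every receptor probe set. All 5 mesenchymal genes were above 5 (71.2% of all genes), up to Col1a2 at 14.27. So were all 5 genes of pluripotent cells, up to Sall4 at 10.43. Whether cells of other types had a part in the levels of the HIF and sensor genes was not tested.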

How the data were processed

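RNA of CH cells from 2 pools of mice was hybridised to Affymetrix mouse whole-genome arrays. The values are log2 signals for each probe set, used as deposited by the authors. According to the methods, RMA and quantile normalisation were run over these arrays and public ones. The sources used here do not say if the deposited values are from that run, nor give tool versions.

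Of 45101 probe sets, 64 controls were left out. Of the others, 34945 named 1 gene, 932 several, and 9160 had no gene listed. Symbols were checked by Entrez identifier against RefSeq (GRCm38.p6), and of 34741 matched probe sets 0 needed a new symbol. A gene was called when at least 1 probe set exceeded 5 on both arrays. The mean was set against 5 with limma 3.58.1 in R 4.3.3 (two-sided, Benjamini-Hochberg over 45037 probe sets, adjusted p under 0.05), tested first on simulated data. The arrays had medians of 5.54 and 5.52. The p-values rest only on differences between these 2 arrays, with the spread shared over all probe sets.

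Named were all 10 genes, every VHL ligase partner and sensing dioxygenase, the 4 highest and 4 lowest genes of the other pathway lists, and of the marker lists Ptprc and the highest gene. Vegfa, Slc2a1, Pecam1, Cd3e and S100a8 were added after their values were seen. The genes and lists were chosen with earlier results of these data known. Alternatives were other limits (6, 8 and the 95th percentile of receptor probe sets), limma in place of the call, renewed quantile normalization, each array left out, the median over probe sets, omission of probe sets ending in _s_at or _x_at, differences centred on their median, and other sizes of difference. Python 3.11.15 with pandas 2.3.3, numpy 2.4.6 and matplotlib 3.10.9 was used.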

Additional observations from a re-analysis of the deposited data

How the results depend on the processing

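No paired analysis was possible because both arrays belong to 1 group. Renewed quantile normalization moved no level of the 30 probe sets by more than 0.0047, and with it or with either array left out 10 genes and 19 probe sets stayed above 5; of the other counts, VHL ligase partners were 4 on array 1 alone (Rbx1). Higher limits admit fewer genes by construction. At 8, the counts were 5 of the 10 genes, 8 of their 30 probe sets and 3 bHLH-PAS relatives, beside 37.0% of all genes. The share of all probe sets at 8 was not counted. At 6 and at the 95th percentile of receptor probe sets, 8 of the 10 genes were above, without Epas1 and Arnt2, and bHLH-PAS relatives were 4 each time. With the median over probe sets, 7 of the 10 genes were above 5, with Epas1 at 4.91, Hif3a at 4.31 and Arnt2 at 4.58 below, and bHLH-PAS relatives were 4. With limma the count was 9, without Epas1. Shares of all genes at 6, at the receptor percentile, with the median and with limma were not counted. These counts therefore show how the calls move and make no comparison with the array. A difference between the arrays of over 0.3 in place of 0.5 was met by 4 probe sets in place of 0. Without probe sets ending in _s_at or _x_at, P4htm was no longer above 5. All other counts stayed within 1.5 times of those reported. Signals between 5 and 6 lie within the range of receptor probe sets. Epas1, Arnt2, P4htm, Rbx1, Car9 and Edn1 are therefore among the genes that cannot be placed above background here.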
